A study of Mus musculus with 6 samples.

Results

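The heat shock proteins and their co-chaperones were described as 77 genes among the 21017 with a row in the deposited count table. Members were the protein-coding genes whose symbol starts with Hsp or Dnaj, or with Cct or Bag followed by a digit. Hspa5, Hsp90b1, Dnajb9, Dnajb11 and Dnajc3, which act in the endoplasmic reticulum, were left out by name. The rule names only symbols and gene type, but it was set with earlier results of these data known. The 77 genes were 13 of the HSP70 and HSP110 family, 2 of the HSP90 family, the 2 mitochondrial chaperonin genes, 7 subunits of the cytosolic chaperonin CCT, 4 small heat shock proteins, 39 J-domain proteins (4 of class A, 10 of class B and 25 of class C), 6 BAG proteins and 2 HSP-binding proteins. The symbol also brought in Hspb11, an intraflagellar transport gene, and Hspg2, which encodes the matrix proteoglycan perlecan and is no chaperone.

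RNA was sequenced from lung group 2 innate lymphoid cells (ILC2s), tissue lymphocytes that lack rearranged antigen receptors and secrete type 2 cytokines. Both groups came from 8-week-old C57BL/6J mice of the IL-10GFP genotype, in which green fluorescence marks cells that express Il10. In both, the mice had been given 3 intranasal doses of 0.5 µg recombinant IL-33, and the sorted ILC2s had spent 48 h in culture with 3 cytokines, each at 10 ng/mL (IL-4, IL-7 and IL-2), so no untreated or uncultured cells stood beside them. A second sort then parted IL-10-producing from IL-10-negative ILC2s, with 3 libraries each. Whether these were separate animals or cultures is not said in the labels. The p-values therefore reflect how far the 3 libraries of a group scatter, and that scatter may be technical.

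Heat shock proteins are molecular chaperones, which hold unfolded stretches of other proteins and help them to fold. HSP70 binds its clients in a cycle driven by ATP: J-domain proteins bring the client and start ATP hydrolysis, and BAG proteins and HSPBP1 release the nucleotide. HSP90 takes over clients such as kinases and steroid receptors, the ring-shaped chaperonin CCT folds actin and tubulin, and the HSP60 and HSP10 chaperonin works inside mitochondria. Some members are made at all times and others mainly under stress, when heat shock factor HSF1 binds heat shock elements in their promoters.

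Levels are given in CPM, counts scaled to the size of each library with TMM factors. A positive fold change means a higher level in IL-10-producing cells, and adjusted p-values come from the quasi-likelihood test of edgeR over 16654 genes, with a threshold of 0.05. Library totals ran from 47012941 to 69511433 counts, and the members took 1.11% to 1.16% of them. Il10 itself, on whose reporter the cells were sorted, stood at 848 against 13.5 CPM. All 12 ILC2 markers were present, at a summed level of 15598 to 15730 CPM in IL-10-producing and 14789 to 14936 CPM in IL-10-negative libraries. Of these markers 4 were higher (Arg1, Klrg1, Il2ra and Il5) and 6 lower (Icos, Il1rl1, Rora, Thy1, Gata3 and Il13), with a median log2 fold change of -0.12. Markers of other cells differed between the groups. Of 14 T-cell markers 13 were lower and 1 higher, with sums of 113 to 114 against 207 to 211 CPM, and of 12 tested markers of mast cells, basophils and neutrophils 11 were lower, with sums of 13.0 to 15.1 against 100.4 to 107 CPM. Both tested natural killer markers were lower (sums 0.0855 to 0.161 against 4.35 to 5.35 CPM, with Ncr1 and Klre1 at 0 in all IL-10-producing libraries). Of 5 B-cell markers 4 were lower, with close sums of 15.7 to 17.2 against 16.9 to 17.6 CPM. Of 6 macrophage and dendritic-cell markers 3 were lower (sums 1.64 to 2.22 against 3.13 to 4.30 CPM). Of 3 tested markers of epithelium, endothelium and fibroblasts 1 was higher and 1 lower (sums 119 to 125 against 104 to 111 CPM). The 16 proliferation markers all rose, at 6828 to 6870 against 5496 to 5556 CPM.

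The HSP90 genes Hsp90aa1 and Hsp90ab1, the HSP70 and HSP110 genes Hspa8 and Hspa4 and the chaperonin genes Hspd1 and Cct8 were slightly higher in IL-10-producing ILC2s, and the heat-inducible Hspa1a and the J-domain gene Dnajb2 were lower. Of the 74 members that passed the filter on low counts, 20 were higher, 8 were lower and 46 did not pass the test. Among all genes tested 17.1% were higher and 18.6% lower, 35.7% in all. With scaling by library size only, 12 members were higher and 14 lower. All genes moved the same way under that scaling, with 2206 of the 16654 higher and 3794 lower, where the main fit gave 2840 and 3103. The changes were small: 23 of the 28 were under 1.2-fold, and the median rise was 1.08-fold and the largest 1.23-fold. Falls had a median of 1.2-fold, and 1 of them, Hspa1a, exceeded 2-fold. Against a null of a 1.2-fold change, no member was higher and 2, Hspa1a and Dnajb2, were lower, beside 2.44% and 5.46% of all genes. At an unadjusted p under 0.05 that test gave 0 higher and 3 lower members. The median log2 fold change was 0.019 over the members and -0.0038 over all genes tested, and the median size without sign was 0.082 over the members and 0.14 over all genes.

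The rises lay mostly among abundant members. Of 33 members at 50 CPM or more in the higher group, 18 were higher and 2 lower, beside 35.3% and 23.4% of all genes at that level (58.7% in all). At 5 CPM or more, 20 of 62 members were higher and 6 lower, beside 24.1% and 23.1% of all genes (47.2% in all). Of 29 members between 5 and 50 CPM, 2 were higher and 4 lower, beside 15.2% and 22.9% of all genes at that level. Of 12 below 5 CPM none was higher and 2 were lower, Hspa1a and Dnajc28, as with DESeq2, beside 4.88% and 10.9% of all genes below 5 CPM. At an unadjusted p under 0.05, edgeR gave 1 higher and 4 lower among these 12. The 3 libraries of each group did not overlap for 23 members on the higher and 12 on the lower side, where all genes had 21.7% and 23.5%. In bulk RNA such as this, fewer cells of a type and less RNA per cell cannot be told apart. The part of the other-cell and proliferation markers given above in these differences was not tested.

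**Figure D1:**
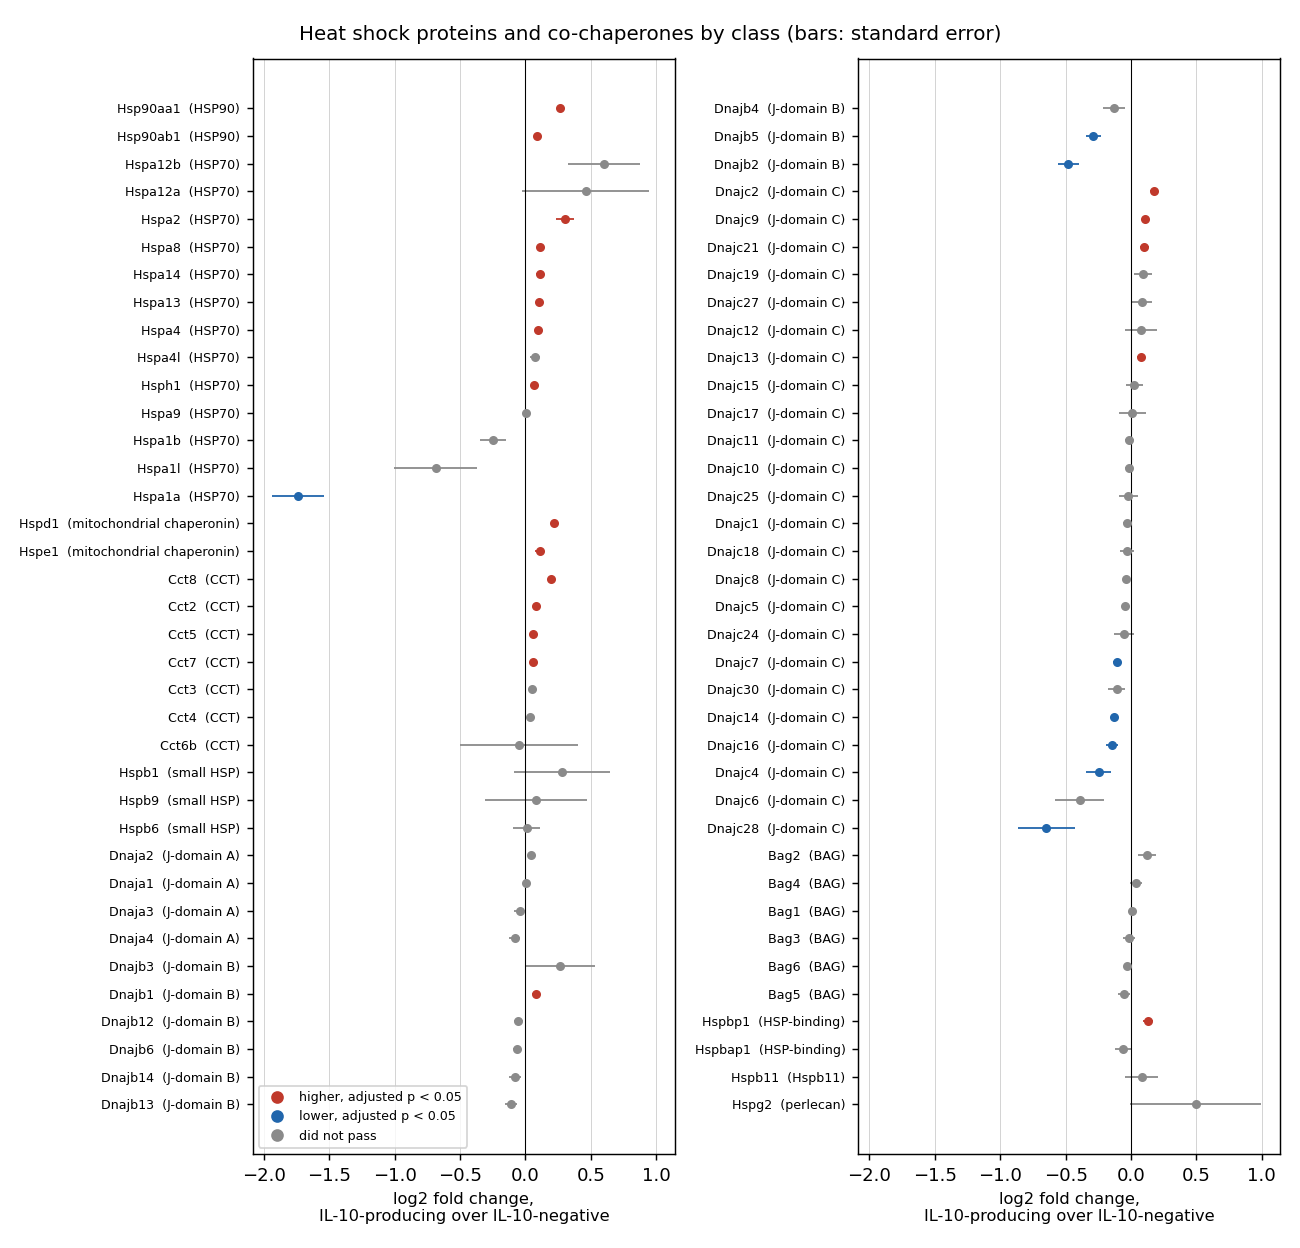
Log2 fold change (x axis, IL-10-producing over IL-10-negative) of the 74 members tested, grouped by class, with bars for the standard error. The 20 members in red were higher and the 8 in blue lower, and the largest change is the fall of Hspa1a by 1.74.

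**Figure D2:**
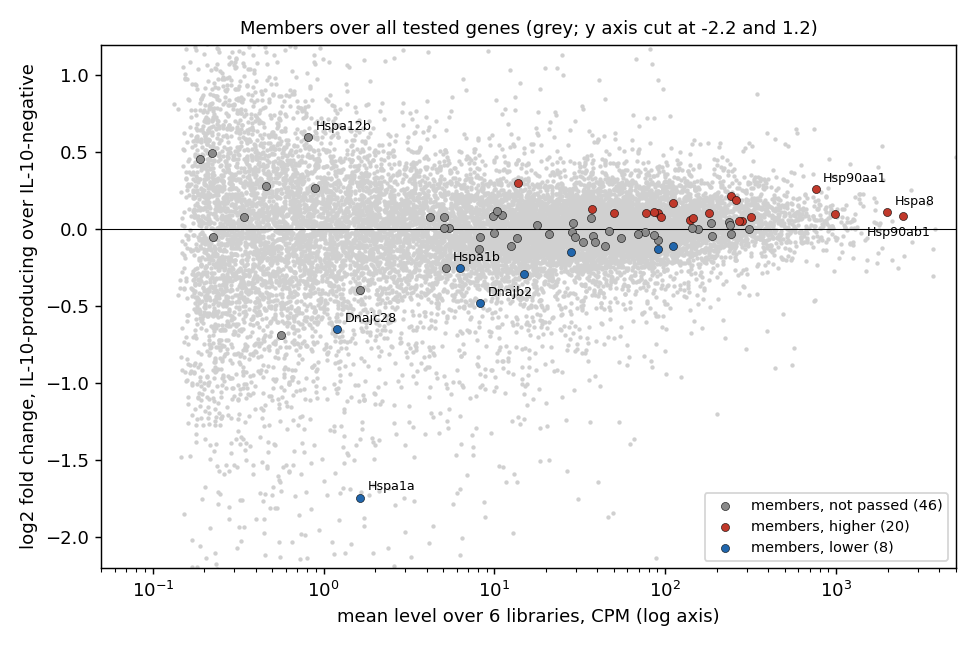
Mean level over the 6 libraries (x axis, CPM on a log scale) against log2 fold change (y axis) for members in colour and all other tested genes in grey. Of 20 higher members 18 lie at 50 CPM or more in the higher group, and 6 of the 8 lower members lie below it.

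Both HSP90 genes rose. Hsp90aa1 (ENSMUSG00000021270.13, chromosome 12, 110690605 to 110702728), the stress-responsive isoform HSP90-alpha, stood at 818, 829.8 and 836 CPM in the IL-10-producing and 690.0, 698 and 683 CPM in the IL-10-negative libraries. All 3 IL-10-producing libraries were above all 3 others. It rose 1.2-fold (log2 fold change 0.26, SE 0.0174, adjusted p = 6.11e-12). Hsp90ab1 (ENSMUSG00000023944.14, chromosome 17, 45567775 to 45573271), the constitutive isoform HSP90-beta and the most abundant member, stood at 2569.8, 2577 and 2503 CPM in the IL-10-producing and 2432, 2356 and 2409.6 CPM in the IL-10-negative libraries. These libraries did not overlap either, but the rise was smaller (log2 fold change 0.088, SE 0.0166, adjusted p = 0.000137). The fitted rise was larger for Hsp90aa1, and its ratio to Hsp90ab1 was higher in every IL-10-producing library than in any IL-10-negative one. Per kilobase of the longest annotated transcript, the Hsp90aa1 level was 0.249 ± 0.00631 of the Hsp90ab1 level in IL-10-producing and 0.221 ± 0.00555 in IL-10-negative libraries (SD, n = 3). An exact two-sided permutation test gave p = 0.1, the smallest that 3 against 3 libraries allow. Summed, the pair stood 9.32% above the IL-10-negative level, at 3339 to 3407 against 3054 to 3122 CPM.

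Of the 13 HSP70 and HSP110 genes, 6 rose, 1 fell and 6 did not pass the test, beside 17.1% higher and 18.6% lower among all genes. Those shares were 24.1% and 23.1% at 5 CPM or more, and 35.3% and 23.4% at 50 CPM or more. Hspa8 (ENSMUSG00000015656.17, chromosome 9, 40800984 to 40810087) encodes HSC70, the constitutive cytosolic HSP70 that also strips clathrin from vesicles. It stood at 2088, 2073 and 2054 CPM in the IL-10-producing and 1944, 1883 and 1931 CPM in the IL-10-negative libraries, with no overlap (log2 fold change 0.11, SE 0.0163, adjusted p = 5.30e-06). Hspa4 (ENSMUSG00000020361.13, chromosome 11, 53259814 to 53300457), an HSP110-type exchange factor for HSP70, stood at 1024, 1018 and 1035 CPM in the IL-10-producing and 957, 963 and 952 CPM in the IL-10-negative libraries. It was likewise higher in every IL-10-producing library (log2 fold change 0.099, SE 0.0164, adjusted p = 2.56e-05). Together with both HSP90 genes these 2 made 53.5% to 55.1% of the summed level of all members. Per kilobase, the order of levels was Hsp90ab1 (1012 against 952 CPM), Hspa8 (656 against 608), Hsp90aa1 (252 against 210.4) and Hspa4 (222 against 207). Hsp90aa1 and Hspa4 lay nearest to each other in the IL-10-negative libraries.

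Hspa2, an HSP70 best known from the testis, was less abundant but rose more: 15.4, 14.9 and 15 CPM in the IL-10-producing and 10.9, 13.7 and 12 CPM in the IL-10-negative libraries (log2 fold change 0.30, SE 0.0714, adjusted p = 0.00142). Hspa13, a microsomal HSP70 (94.3 against 87.8 CPM, adjusted p = 0.00318), and Hspa14, a ribosome-associated HSP70 (80.3 against 74.5 CPM, adjusted p = 0.00446), rose by about the same factor as Hspa8. Hsph1, which encodes HSP105 of the HSP110 type, stood at 144, 144 and 143 CPM in the IL-10-producing and 137, 139 and 136 CPM in the IL-10-negative libraries (log2 fold change 0.062, SE 0.023, adjusted p = 0.0375). Its groups did not overlap, but its call ended under scaling by library size alone (adjusted p = 0.308), with no filter, with the replicate number as a block and without any of 4 single libraries (adjusted p 0.072 to 0.113). Hspa9, the mitochondrial HSP70 mortalin, stood at 312, 307 and 311 CPM in the IL-10-producing and 309, 306 and 313 CPM in the IL-10-negative libraries. The 2 groups overlapped fully (log2 fold change 0.0028, adjusted p = 0.933). Hspa4l did not pass the test, although its libraries did not overlap (37.9 against 36 CPM, adjusted p = 0.144), and Hspa12a and Hspa12b stayed below 1 CPM on average. Hspa12b was called higher without IL-10-negative replicate 3 (adjusted p = 0.0382). The 13 genes summed to 6.83% more in IL-10-producing cells.

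**Figure D3:**
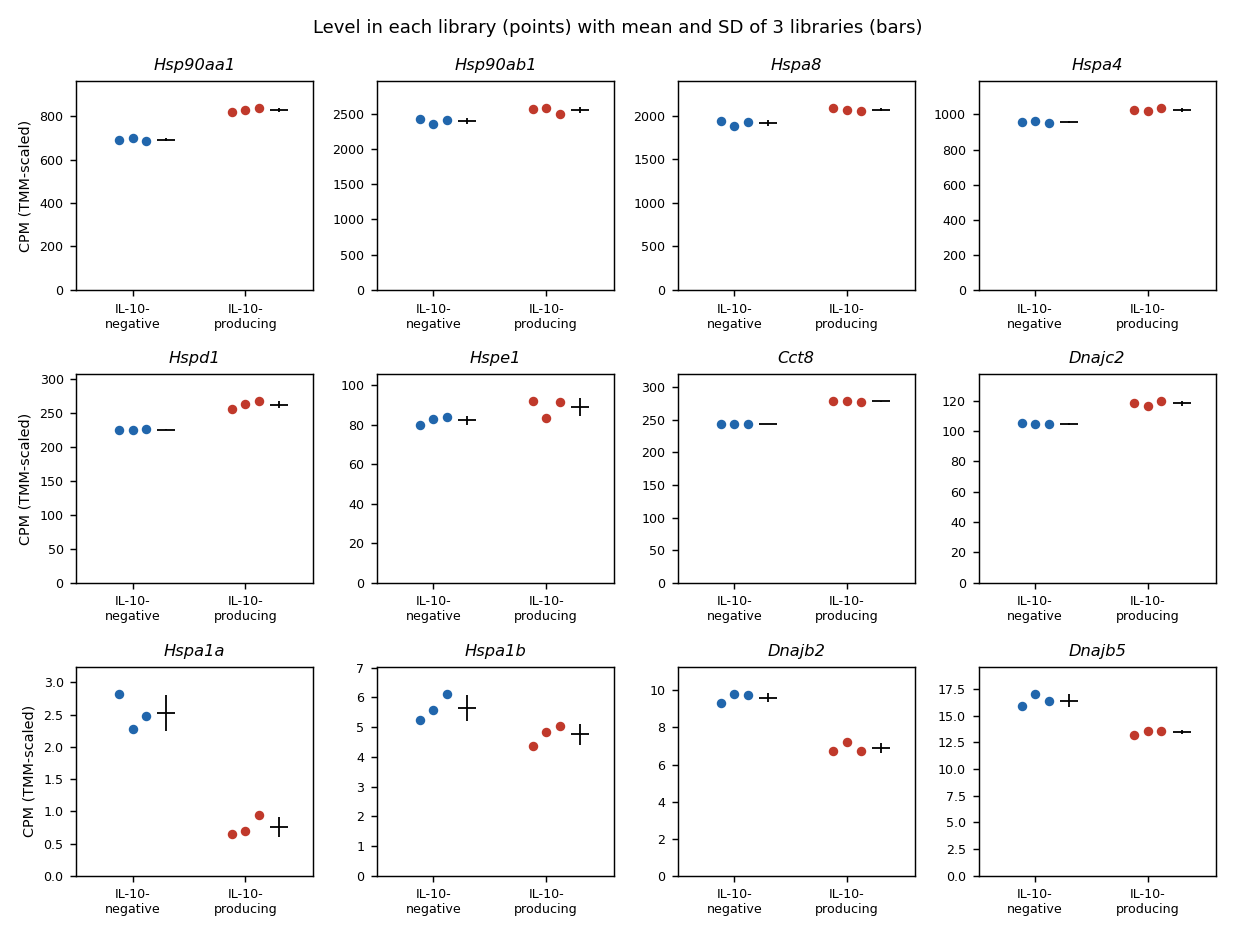
CPM (y axis, from 0) of 12 members in each library, as points, with the mean and SD of each group of 3 as a cross. The groups are close but apart in 11 panels, those of Hspe1 overlap, and Hspa1a shows the widest gap, from 0.645 to 0.937 against 2.27 to 2.82 CPM.

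The heat-inducible gene Hspa1a fell. Hspa1a (ENSMUSG00000091971.3, chromosome 17, 34969190 to 34972156) and Hspa1b (ENSMUSG00000090877.3, chromosome 17, 34956436 to 34959238) lie side by side and encode nearly the same protein, the HSP70 that cells make in large amounts after heat. Their annotated coding sequences differed at 8 bases, with 3 gap bases. The 250 bases before their start sites, from RefSeq on GRCm38.p6, are shown because the 2 copies carry nearly the same sequence there. Their estimated levels differ, but the split of reads between the copies is uncertain, as described below. The windows differ at 3 bases and are 98.8% identical. Capitals mark a pair of inverted heat shock units, GAANNTTC, from 104 to 97 bases upstream, and each run reads 5′ to 3′ on the minus strand, at chr17:34972157-34972406 for Hspa1a and chr17:34959239-34959488 for Hspa1b.
Hspa1a: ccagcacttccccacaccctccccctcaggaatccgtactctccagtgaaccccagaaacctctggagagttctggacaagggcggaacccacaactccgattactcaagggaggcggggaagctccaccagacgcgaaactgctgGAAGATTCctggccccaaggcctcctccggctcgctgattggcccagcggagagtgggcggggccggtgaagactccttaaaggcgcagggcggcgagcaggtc
Hspa1b: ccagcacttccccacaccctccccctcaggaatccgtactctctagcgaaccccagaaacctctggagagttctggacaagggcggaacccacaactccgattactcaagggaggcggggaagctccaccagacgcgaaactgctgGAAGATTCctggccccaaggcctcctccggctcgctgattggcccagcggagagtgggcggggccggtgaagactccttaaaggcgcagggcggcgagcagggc

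Hspa1a stood at 0.645, 0.689 and 0.937 CPM in the IL-10-producing and 2.82, 2.27 and 2.48 CPM in the IL-10-negative libraries. The highest IL-10-producing library was below the lowest IL-10-negative one, and the gene was 3.34-fold lower (log2 fold change -1.74, SE 0.199, adjusted p = 1.05e-07). It rested on 126 estimated counts in the 3 IL-10-producing libraries together and 419 in the others. On the log2(value + 1) scale of the authors' normalized values the fall was -0.89. Hspa1b was more abundant and stood at 4.36, 4.83 and 5.05 CPM in the IL-10-producing and 5.22, 5.58 and 6.11 CPM in the IL-10-negative libraries. Its groups did not overlap, but it did not pass the test (log2 fold change -0.25, SE 0.102, adjusted p = 0.0604). It passed with library size only (adjusted p = 0.0351) and without IL-10-negative replicate 1 (adjusted p = 0.0423).

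Reads cannot always be assigned to 1 of the 2 copies: 52.7% of the 75-base stretches of the Hspa1a transcript also occur in that of Hspa1b, so the split between them is uncertain. Their sum does not depend on that split. The sum is still uncertain to some extent, since 19.0% of the Hspa1a exon bases are shared with the antisense gene Gm20481. In addition, 5.88% of the 75-base stretches of Hspa1a also occur in Hspa1l. Hspa1a and Hspa1b together came to 5.01, 5.52 and 5.99 CPM in the IL-10-producing and 8.04, 7.85 and 8.58 CPM in the IL-10-negative libraries, with no overlap. The sum was 32.5% lower. The Hspa1a level was 0.159 ± 0.0235 of the Hspa1b level in IL-10-producing and 0.451 ± 0.0768 in IL-10-negative libraries (SD, n = 3, exact two-sided permutation p = 0.1). Hspa1l, the third gene of the cluster, stood at 0.49, 0.469 and 0.322 against 0.78, 0.777 and 0.522 CPM without overlap but did not pass the test (adjusted p = 0.0988), and 71.9% of its exon bases are shared with an antisense gene. These genes were scarce beside the constitutive HSP70: per kilobase, Hspa8 was 389 ± 32.5 times the level of Hspa1b in IL-10-producing and 304 ± 25.2 times in IL-10-negative libraries (SD, n = 3). Atf3, an early stress gene, was also lower (1.18 against 3.01 CPM), while Fos and Egr1 were higher (56.7 against 31.5 CPM and 92.1 against 42.8 CPM). Of 13 dissociation and sorting genes 6 were higher and 3 lower, with sums of 1409 to 1463 against 1299 to 1333 CPM, and their part in the fall of Hspa1a was not tested.

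Both genes of the mitochondrial chaperonin rose. Hspd1 (ENSMUSG00000025980.14, chromosome 1, 55077835 to 55088243) encodes HSP60, the ring, and Hspe1 (ENSMUSG00000073676.4, chromosome 1, 55088132 to 55091307) encodes HSP10, its lid. They are transcribed in opposite directions. RefSeq lists 2 start sites for Hspd1, and from 1 of them the gene runs away from the Hspe1 start, 215 bases off, while from the other the 2 transcripts overlap. A stretch between the 2 starts that lie 215 bases apart is shown because it holds the heat shock element of 3 units more than once. Capitals mark 18 bases that hold 2 overlapping matches. The element has the units GAA, TTC and GAA in turn, or TTC, GAA and TTC, each parted by NN, and these are reverse complements of each other. The capitals run from 89 to 72 bases upstream of Hspe1 (chr1:55088053-55088082, plus strand, RefSeq, GRCm38.p6).
Hspe1: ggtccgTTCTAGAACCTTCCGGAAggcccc

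Hspd1 stood at 256, 263 and 267 CPM in the IL-10-producing and 225, 225 and 226 CPM in the IL-10-negative libraries, with all IL-10-producing libraries on top. It rose 1.16-fold (log2 fold change 0.22, SE 0.0211, adjusted p = 6.28e-09). Hspe1 stood at 91.8, 83.5 and 91.4 CPM in the IL-10-producing and 79.6, 82.8 and 84.1 CPM in the IL-10-negative libraries. IL-10-producing replicate 2 lay below the highest IL-10-negative library, so the groups overlapped (log2 fold change 0.11, SE 0.034, adjusted p = 0.0123). The Hspe1 call ended under scaling by library size alone (adjusted p = 0.0776), without IL-10-producing replicate 1 (0.081) and without IL-10-negative replicate 1 (0.0732). Per kilobase, Hspd1 was 1.18 ± 0.0737 times Hspe1 in IL-10-producing and 1.09 ± 0.0303 times in IL-10-negative libraries (SD, n = 3). These ratios overlapped, and the exact two-sided permutation test gave p = 0.2, where 0.1 is the smallest possible. The 2 genes share 112 exon bases on opposite strands, and Hspd1 shares stretches with the processed pseudogene Hspd1-ps3, so both are uncertain to that extent. The pseudogene row stood at 112 against 96.8 CPM, and Hspd1 with it summed to 16% more in IL-10-producing cells.

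All subunits of the cytosolic chaperonin that were abundant had higher means in IL-10-producing cells, by different amounts. CCT is a double ring of 8 different subunits, of which the rule took 2 to 5, 7 and 8 and the scarce variant Cct6b. Of these 7 genes 4 rose and none fell, as with DESeq2, and at an unadjusted p under 0.05 edgeR gave 5 and 0. All but Cct6b stood above 50 CPM, a level at which 35.3% of all genes were higher and 23.4% lower. Cct8 (ENSMUSG00000025613.13, chromosome 16, 87483326 to 87495873) stood at 278, 278 and 278 CPM in the IL-10-producing and 243, 243 and 243 CPM in the IL-10-negative libraries. Its replicates lay within 1 CPM of each other in each group, and it rose (log2 fold change 0.19, SE 0.0195, adjusted p = 1.19e-08). Cct2 stood at 328, 324 and 329 CPM in the IL-10-producing and 300.4, 312 and 314 CPM in the IL-10-negative libraries and rose less (log2 fold change 0.082, SE 0.0208, adjusted p = 0.00266). Cct5 stood at 289, 291 and 282 CPM in the IL-10-producing and 279, 272 and 279 CPM in the IL-10-negative libraries (log2 fold change 0.056, SE 0.0206, adjusted p = 0.0376). Cct7 also passed (277 against 267 CPM, adjusted p = 0.0482), although its libraries overlapped.

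Cct3 (239 against 232 CPM, adjusted p = 0.0885) and Cct4 (241 against 236 CPM, adjusted p = 0.259) did not pass, although their libraries did not overlap. Cct3 was called higher without IL-10-producing replicate 3 (adjusted p = 0.0208). Cct6b, a subunit variant known from the testis, was at 0.223 against 0.228 CPM. The calls of Cct5 and Cct7 ended under scaling by library size alone (adjusted p = 0.361 and 0.398), with no filter, with the replicate number as a block and without any of 5 single libraries. The Cct2 call ended under scaling by library size alone (adjusted p = 0.0533). The remaining subunits were outside the rule: Tcp1, subunit 1, stood at 417, 415 and 421 CPM in the IL-10-producing and 369, 375 and 369.9 CPM in the IL-10-negative libraries (log2 fold change 0.17, SE 0.0187, adjusted p = 5.52e-08), and Cct6a, which the table types as a processed transcript, at 254 against 233 CPM (adjusted p = 5.53e-05). The rises of Cct8 and Tcp1 were thus the largest of the 8 subunits and that of Cct4 the smallest, a difference between subunits that was not tested.

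**Figure D4:**
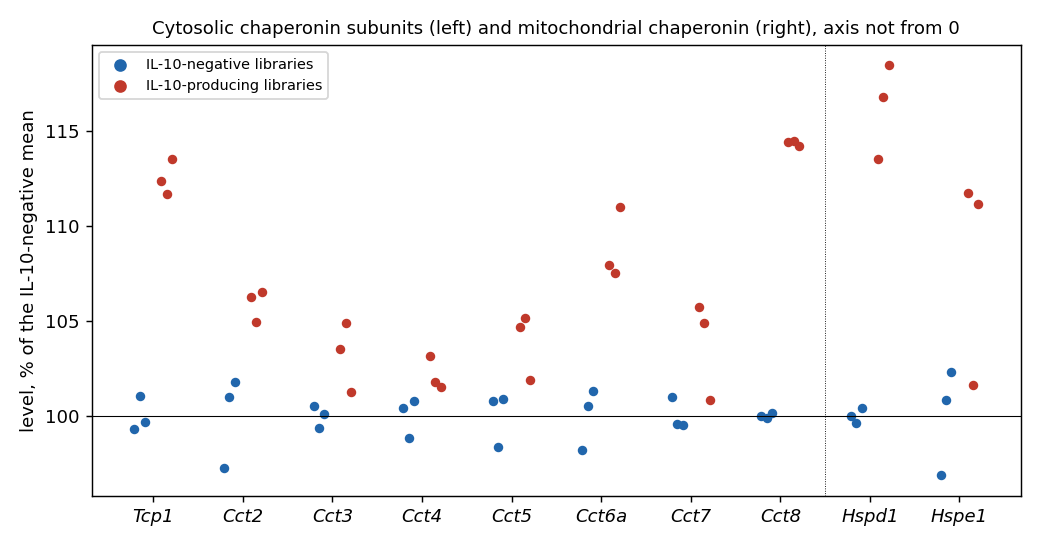
Level of each subunit gene as a percentage of its IL-10-negative mean (y axis, not from 0), with IL-10-negative libraries in blue and IL-10-producing ones in red. Cct8, Tcp1 and Hspd1 lie well apart between groups, whereas Cct3, Cct4, Cct5 and Cct7 lie within a few percent.

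J-domain proteins did not move in 1 direction. Of 37 tested, 5 rose (13.5%), 7 fell (18.9%) and 25 did not pass, with a median log2 fold change of -0.033. These shares were near the 17.1% and 18.6% of all genes tested. None of the 4 class A genes, the general partners of HSP70, passed with edgeR or DESeq2, and at an unadjusted p under 0.05 edgeR gave 0. Dnaja2 came nearest in separation, at 184, 188 and 188 CPM in the IL-10-producing and 181, 184 and 179.7 CPM in the IL-10-negative libraries without overlap (log2 fold change 0.043, adjusted p = 0.134). Dnaja1 (155 against 155 CPM), Dnaja3, the mitochondrial member, and Dnaja4 overlapped between groups. Dnaja3 stood at 39.0, 36.9 and 36.3 CPM in the IL-10-producing and 37.8, 37.4 and 40.4 CPM in the IL-10-negative libraries. For Dnaja4 the values were 37.4, 37.1 and 38.2 against 40.4, 41.2 and 37.6 CPM. Dnaja4, which shares 44.1% of its exon bases with an antisense gene, was called lower with library size only (adjusted p = 0.0382) and without IL-10-negative replicate 3 (0.0379).

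In class B, Dnajb2 and Dnajb5 fell and Dnajb1 rose. Dnajb2 (ENSMUSG00000026203.16, chromosome 1, 75236406 to 75245692), a ubiquitin-binding partner of HSP70 known from neurons, stood at 6.73, 7.22 and 6.72 CPM in the IL-10-producing and 9.31, 9.80 and 9.74 CPM in the IL-10-negative libraries. No library overlapped, and it was 1.39-fold lower (log2 fold change -0.48, SE 0.0774, adjusted p = 1.95e-05). Dnajb5 stood at 13.2, 13.6 and 13.5 CPM in the IL-10-producing and 15.9, 17 and 16.4 CPM in the IL-10-negative libraries and was 1.22-fold lower (log2 fold change -0.29, SE 0.0586, adjusted p = 0.000321). Dnajb1, which encodes HSP40 and is itself heat-inducible, stood at 97, 96.3 and 95.6 CPM in the IL-10-producing and 90.3, 91.2 and 92.2 CPM in the IL-10-negative libraries and was slightly higher (log2 fold change 0.078, SE 0.0262, adjusted p = 0.0217). Its call ended under scaling by library size alone (adjusted p = 0.165) and without IL-10-producing replicate 1 (0.0661), IL-10-negative replicate 1 (0.0808) or IL-10-negative replicate 2 (0.0526).

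The other class B genes did not pass. Dnajb6, a suppressor of protein aggregation, was at 88, 89.2 and 89.5 against 94.5, 92.6 and 92.1 CPM without overlap (adjusted p = 0.0556). Dnajb13 shares 11.2% of its exon bases with the antisense gene Ucp2, whose level was far higher (1786 against 1939 CPM), so its own value is uncertain (42.9 against 46.4 CPM, adjusted p = 0.0561). Both were called lower with at least 50 counts in 3 libraries (adjusted p = 0.0467 and 0.0441) and with library size only (0.006 and 0.0148). Dnajb13 was also called lower in the limma fit of the normalized values, with the replicate block, without IL-10-producing replicate 2 and without IL-10-negative replicate 3 (adjusted p 0.00675 to 0.0366). Dnajb3, Dnajb4, Dnajb12 and Dnajb14 overlapped between groups, and Dnajb7 did not pass the filter.

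Class C held 4 of the rises and 5 of the falls. These were 16.7% and 20.8% of its 24 tested genes, near the 17.1% and 18.6% of all genes. Dnajc2, the ribosome-associated J-domain protein that works beside Hspa14, stood at 119, 116 and 119.6 CPM in the IL-10-producing and 105, 104 and 104 CPM in the IL-10-negative libraries. Its groups did not overlap (log2 fold change 0.17, SE 0.0249, adjusted p = 3.29e-06). Dnajc9, a histone chaperone, stood at 186, 185 and 188 CPM in the IL-10-producing and 172, 175 and 171 CPM in the IL-10-negative libraries (log2 fold change 0.11, SE 0.0216, adjusted p = 0.000239). Dnajc13, an endosomal protein (149 against 141 CPM, adjusted p = 0.0175), and Dnajc21, which acts in ribosome assembly (52.2 against 48.5 CPM, adjusted p = 0.0274), rose as well. Dnajc14 stood at 87, 88.2 and 86.3 CPM in the IL-10-producing and 94.8, 95.6 and 95.5 CPM in the IL-10-negative libraries and fell (log2 fold change -0.13, SE 0.0264, adjusted p = 0.000377), and 17.0% of its exon bases are shared with the antisense gene Ormdl2. The co-chaperone Dnajc7, which binds both HSP70 and HSP90, fell too (106 against 115 CPM, adjusted p = 0.00515).

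The remaining falls were of Dnajc16 (26.5 against 29.3 CPM, adjusted p = 0.0179), Dnajc4 (5.77 against 6.84 CPM, adjusted p = 0.0386) and Dnajc28. Dnajc28 was scarce, at 0.799, 1.08 and 0.92 CPM in the IL-10-producing and 1.29, 1.67 and 1.44 CPM in the IL-10-negative libraries, and 1.57-fold lower (log2 fold change -0.65, SE 0.216, adjusted p = 0.0211). On the log2(value + 1) scale of the authors' normalized values its fall was -0.31. Its call was lost without IL-10-producing replicate 1 (adjusted p = 0.0866) or IL-10-negative replicate 2 (0.102). The other 15 tested class C genes did not pass. Among them Dnajc5, the cysteine string protein of secretory vesicles, was at 185, 187 and 180.3 against 189, 189.9 and 189 CPM without overlap (adjusted p = 0.13), and it was called lower with library size only (0.00783). Dnajc6 was called lower without IL-10-negative replicate 1 (adjusted p = 0.0353).

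Hspbp1 rose, and the BAG genes did not pass the test. Hspbp1, a nucleotide exchange factor, stood at 38.3, 38.7 and 40.0 CPM in the IL-10-producing and 36.4, 35.1 and 35.2 CPM in the IL-10-negative libraries without overlap (log2 fold change 0.13, SE 0.0398, adjusted p = 0.00993). Hspbap1, an HSP27-associated protein, stood at 13, 13.5 and 13.4 against 13.3, 15.1 and 13.2 CPM with overlap (adjusted p = 0.548). None of the 6 BAG genes passed with edgeR, and at an unadjusted p under 0.05 there were 0, as there were 0 with DESeq2. All 6 stood above 5 CPM, a level at which 24.1% of all genes were higher and 23.1% lower. Bag3, the heat-inducible member that works in autophagy of aggregates, stood at 29, 26.6 and 29.6 CPM in the IL-10-producing and 27.8, 28.7 and 29.4 CPM in the IL-10-negative libraries, with the groups interleaved (log2 fold change -0.016, adjusted p = 0.837). Bag2 was at 10.5, 10.6 and 11.4 against 10.3, 10.3 and 9.31 CPM without overlap (adjusted p = 0.201). Bag6, a holdase for membrane proteins and the most abundant BAG gene, was at 243, 242 and 233 against 248, 240.2 and 245 CPM (adjusted p = 0.327), and Bag5 at 29.3 against 30.3 CPM. Bag6 was called lower with library size only (adjusted p = 0.0295).

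The small heat shock proteins, which hold aggregating proteins without ATP, were scarce, and none of the 3 tested passed with edgeR or DESeq2 or had an unadjusted p under 0.05 (0 of 3). Among all genes tested 17.1% were higher and 18.6% lower, but below 5 CPM only 4.88% and 10.9%. Hspb1 (HSP27) was at 0.5 against 0.415 CPM, Hspb9 at 0.346 against 0.336 CPM, and Hspb8, which did not pass the filter, at 0.0864 against 0.0833 CPM. Hspb6 was the most abundant, at 5.33, 5.44 and 5.43 against 5.83, 5.72 and 4.57 CPM, and overlapped (adjusted p = 0.957). Hspb11 (4.94, 4.16 and 6.54 against 5.23, 4.93 and 4.46 CPM) and perlecan, Hspg2 (0.264 against 0.181 CPM), did not pass either.

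The element of 3 heat shock units was rare. RefSeq promoters of 300 bases (250 before and 50 after the start) were listed for 63 of the 77 members, leaving aside Hsp90aa1, Hsp90ab1, Hspa8, Hspa9 and 10 others. It was found in 4 of the 63 genes (6.35%), Hspd1, Hspe1, Hsph1 and Dnajb6, beside 0.659% of all 27025 genes listed. In Hspd1 and Hspe1 it is the same stretch of DNA, read on opposite strands, so these genes are not separate cases. The shorter GAANNTTC or TTCNNGAA, each its own reverse complement and contained in the longer element, was found in 17 members (27.0%) beside 17.0% of all genes. The 2 elements not yet shown follow, in capitals, at chr5:29735843-29735872 for Dnajb6 (plus strand, 46 to 34 bases upstream) and chr5:149636280-149636309 for Hsph1 (minus strand, 15 to 27 bases after the start).
Dnajb6: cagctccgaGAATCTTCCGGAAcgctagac
Hsph1: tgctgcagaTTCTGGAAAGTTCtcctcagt

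Of the 4 genes with the longer element, Hspd1, Hspe1 and Hsph1 rose and Dnajb6 did not pass. Hspd1 and Hspe1 share their element. With library size only, the calls of Hspe1 and Hsph1 ended and Dnajb6 was called lower. Among 16 tested members with the shorter element 5 rose and 1, Hspa1a, fell. Of 45 with a listed promoter and neither element, 10 rose and 7 fell, and of 13 with no promoter listed 5 rose and none fell. Among all genes tested 17.1% were higher and 18.6% lower, and at 5 CPM or more 24.1% and 23.1%. A link between the elements and the calls was not tested. The presence of these letters is a description of sequence only.

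Among genes that work with these chaperones, 16 of 52 measured rose and 8 fell, beside 17.1% and 18.6% of all genes tested. Most of the 52 stood above 5 CPM, a level at which 24.1% of all genes were higher and 23.1% lower. Of 26 HSP90 co-chaperones 11 rose, 2 fell and 13 did not pass, with a median log2 fold change of 0.06 beside -0.0038 for all genes. All 11 that rose stood above 50 CPM, a level at which 35.3% of all genes were higher and 23.4% lower. Ppid, the cyclophilin CYP40, stood at 62.4, 61.2 and 62.3 CPM in the IL-10-producing and 51.6, 56.7 and 52.9 CPM in the IL-10-negative libraries (log2 fold change 0.20, adjusted p = 5.72e-05). Tomm70a, the mitochondrial import receptor that docks HSP70 and HSP90, stood at 150.1, 148 and 149.6 CPM in the IL-10-producing and 138, 139 and 133 CPM in the IL-10-negative libraries (log2 fold change 0.12, adjusted p = 0.000216). Fkbp4, Fkbp5, Fkbp8, Cdc37, Ptges3, Nudc, St13, Chordc1 and Ahsa1 rose as well, Tsc1 and Sgta fell, and Stip1, the adaptor HOP, did not pass (184 against 177 CPM, adjusted p = 0.0601).

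None of the heat shock factors passed, while 2 regulators of HSF1 fell. Hsf1 stood at 39.3, 38.7 and 38.1 CPM in the IL-10-producing and 42.2, 40.1 and 40.0 CPM in the IL-10-negative libraries (log2 fold change -0.075, adjusted p = 0.141) and was called lower with library size only (adjusted p = 0.0355). Ier5, which promotes HSF1 activity, stood at 51.2, 51.5 and 55.7 CPM in the IL-10-producing and 67.1, 67 and 70.1 CPM in the IL-10-negative libraries (log2 fold change -0.37, adjusted p = 6.98e-09), with no overlap. Hsbp1, a binding inhibitor of HSF1, stood at 54.9, 52.9 and 51.8 CPM in the IL-10-producing and 56.2, 58.1 and 59 CPM in the IL-10-negative libraries (log2 fold change -0.12, adjusted p = 0.00857). The 5 measured genes of that list had a median log2 fold change of -0.12, with 2 lower and none higher, as with DESeq2. At an unadjusted p under 0.05 edgeR gave 3 lower and 1 higher.

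Of the 13 genes listed as prefoldin and chaperonin partners, a list that also holds the subunit Tcp1, 3 rose and 3 fell, with a median log2 fold change of -0.052. Apart from Tcp1, Vbp1 and Pfdn1 rose, and Pfdn5, a prefoldin subunit, fell, at 79.9, 74.8 and 81.5 CPM in the IL-10-producing and 92.6, 88.6 and 92.5 CPM in the IL-10-negative libraries (log2 fold change -0.22, adjusted p = 6.14e-06). Pdrg1 and Uri1 fell too. Of 8 mitochondrial partners 2 rose and 1 fell, with a median of 0.062. Lonp1, the matrix protease, rose (123, 126 and 125 against 117, 116 and 120.0 CPM, adjusted p = 0.0062), a call that ended under scaling by library size alone (adjusted p = 0.068). Grpel1, the exchange factor of mortalin, rose too (59.8 against 55.9 CPM, adjusted p = 0.0243). Hscb, a J-domain protein of iron-sulfur cluster assembly whose symbol lies outside the rule, fell (7.71, 6.39 and 7.06 against 9.06, 9.25 and 9.24 CPM, adjusted p = 0.000563).

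Calls of 16 members held in all 8 other fits without a fold minimum and in all 6 fits that left out a library. They were the rises of Hsp90aa1, Hsp90ab1, Hspa2, Hspa4, Hspa8, Hspa13, Hspa14, Hspd1, Cct8, Dnajc2, Dnajc9 and Hspbp1 and the falls of Hspa1a, Dnajb2, Dnajb5 and Dnajc14. Leaving out IL-10-negative replicate 1 gave 13 higher members, and the calls of Dnajc13, Dnajc16, Dnajc21 and Dnajc4 were among the 9 lost (adjusted p 0.051 to 0.135). Without IL-10-negative replicate 2, 7 calls were lost, Dnajc7, Dnajc13 and Dnajc21 among them (0.0526 to 0.167). Without IL-10-producing replicate 2, Dnajc4, Dnajc13, Dnajc16 and Dnajc21 were among 7 lost (0.0688 to 0.127). Dnajc4 was also lost without IL-10-negative replicate 3, without IL-10-producing replicate 1 and with DESeq2 (adjusted p = 0.106), and Dnajc21 without IL-10-producing replicate 3 (0.0724).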

How the data were processed

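Estimated counts per gene were deposited by the authors without normalization between libraries, and 50.4% of the values were not whole numbers. The submitters' processing notes name STAR 2.5.3a, Partek, bcl2fastq 2.17.1.14 and genome build mm10. The annotation release, the strand setting and the selection of transcripts were not given in the sources used here. Normalized signal values were deposited for 13824 genes, and each equalled the count plus 1, multiplied by a factor of its library. Libraries were made from 10 ng of RNA, per the labels' protocols.

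The estimated counts were rounded and tested with edgeR 4.0.16 in R 4.3.3 (glmQLFit and glmQLFTest, TMM, filterByExpr with minimum count 10 and total 15), with group as the only term, with Benjamini-Hochberg adjustment over the 16654 genes kept. Levels are CPM with TMM-scaled library sizes, as mean ± SD of 3 libraries. Dnajb7, Dnajc22 and Hspb8 did not pass the filter. Transcript lengths, overlaps and coding sequences came from GENCODE M21, where 73 members had the same versioned identifier. Positions are 1-based on GRCm38 (mm10), with 1 subtracted from the listed stop. The exons of 27 members overlap another gene, and their values are uncertain to that extent. The variance between replicates was 2.40 to 2.93 times that of Poisson noise, so none was a copy of another. Depth limits precision most for members under 1 CPM.

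Values in every library are given for a set of much-studied members, for the 3 members of each class with the smallest p at 5 CPM or more, for called members changed at least 1.5-fold at 1 CPM or more, and for the 2 genes of each pathway list with the smallest p. Other library values shown are of members whose groups did not overlap, and they were chosen after their values were seen. The members and lists were chosen with earlier results of these data known. Promoters came from RefSeq (GRCm38.p6). Protein sequences were not used here. The test code was checked on simulated data.

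Alternatives were library size only, size factors of DESeq2, at least 50 counts in 3 libraries, no filter, a test against a 1.2-fold change (glmTreat), the replicate number as a block, leaving out each library, DESeq2 1.42.0, limma-voom (limma 3.58.1), and limma on the authors' normalized values, as log2(value + 1).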

Additional observations from a re-analysis of the deposited data

How the results depend on the processing

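The counts of 20 higher and 8 lower members became 12 and 14 with library size only, which shifted the median of all genes by -0.031 on the log2 scale. Under that scaling all genes went from 2840 higher and 3103 lower to 2206 and 3794. In the test against a 1.2-fold change the members came to 0 and 2, and all genes to 407 and 910. Other scalings, filters and tools gave 17 to 20 higher and 7 to 10 lower members. Leaving out 1 library gave 13 to 20 higher and 6 to 9 lower members, and the lowest count was that without IL-10-negative replicate 1. Pairing by replicate number was not seen: same-numbered libraries deviated with correlations of -0.0479, -0.0234 and -0.0296. Differently numbered ones had 0.0017 to 0.0284. With 3 libraries per group, such small values cannot show whether same-numbered libraries shared a mouse or culture. With the replicate number as a block, 17 members were higher and 9 lower. The sign of 15 members, none of which had passed the test, turned in at least 1 alternative, among them the 5 whose values follow. With 1 library left out, log2 fold changes ran from -0.042 to 0.034 for Bag3 (0.0037 without IL-10-negative replicate 3), from -0.0051 to 0.011 for Hspa9, from -0.10 to 0.23 for Hspb11, from -0.095 to 0.071 for Hspb6 and from -0.092 to 0.011 for Hspbap1. With library size only, those of Hspa9 and Hspb6 were -0.028 and -0.021. The cause of these changes was not tested. The widest standard errors belonged to members under 1 CPM, where depth limits the values most.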
